A study of Mus musculus castaneus and Mus musculus domesticus and Mus musculus with 11 samples.

Results

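The genes described here encode the microtubule cytoskeleton of the neuron: the tubulins, the proteins that bind tubulin or the microtubule lattice, and the kinesin motors. Members were the rows of the read matrix whose Ensembl identifier carries the symbol of a kinesin (Kif), an alpha- or beta-tubulin (Tuba, Tubb), a stathmin (Stmn1 to Stmn4), a collapsin response mediator (Dpysl2 to Dpysl5), or Map1a, Map1b, Map2, Map4, Map6, Map7, Mapt, Dcx or Dclk1, with pseudogenes left out. The rule found 62 of 27071 genes, and 57 of them passed the filter on low counts, as did 14839 genes in all. The other 5, Tuba3b, Tubb1, Kif28, Kif12 and Kif2b, had at most 29 counts in any line and were not tested. A further 8 annotated genes with such symbols, Tuba1a, Tuba3a, Tubb2a, Tubb2b, Kif1c, Kif20a, Kif20b and Kif27, had no row in the read matrix and could not be analysed.

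RNA was sequenced from cultures labelled as motor neurons, which the series title describes as stem cell-derived. There were 3 libraries from each of 3 mouse lines. The lines were a cross labelled 129CAS, described in the design text as hybrid CASTx129 and called the hybrid here, the wild-derived strain CAST/EiJ, called CAST, and the laboratory strain 129S6/SvEv, called 129. No agent, transgene or time point is given for any group, and the series text states that the sequencing served to compare the transcriptional identity of the lines. Whether a line's libraries are separate cultures, and how many clones stand for a line, is not in the labels. The p-values therefore cover the spread among these libraries, which may be technical.

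Microtubules are hollow polymers of alpha- and beta-tubulin dimers. Genomes encode several isotypes of each, which are nearly identical in their cores and differ most at the carboxy-terminal tail, where many enzymes and motors act. In axons, stathmins bind free tubulin dimers, collapsin response mediators help deliver tubulin to the growth cone, and structural microtubule-associated proteins (MAPs) and doublecortins stabilise the polymer. Kinesins walk along microtubules or take them apart. Some carry cargo down axons and dendrites, some build the mitotic spindle, and some act in cilia.

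The alpha-tubulin pair Tuba1b and Tuba1c is introduced first because the largest difference among the lines lies in it and because the coding sequences are hard to tell apart. Over 1350 aligned coding bases in the GENCODE annotation of GRCm38 they differed at 22, an identity of 98.37%, and the longest identical run was 468 bases. Of all stretches of 100 bases in the annotated transcripts, 65.2% of those of Tuba1b and 46.0% of those of Tuba1c also occur in a transcript of another gene, mostly in each other.

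The beta-tubulins Tubb3, Tubb4b and Tubb5 are easier to separate. The ends of their coding sequences are printed 5′ to 3′ on the coding strand from the same annotation, 60 bases each, since their balance is described below. Capitals mark bases in no 15-base stretch shared with another of the 5 beta-tubulin coding sequences compared. These were Tubb1, Tubb3, Tubb4a, Tubb4b and Tubb5, so Tubb2a, Tubb2b and Tubb6 were not compared.
Tubb3: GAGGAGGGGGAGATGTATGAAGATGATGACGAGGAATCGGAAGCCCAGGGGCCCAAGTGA
Tubb4b: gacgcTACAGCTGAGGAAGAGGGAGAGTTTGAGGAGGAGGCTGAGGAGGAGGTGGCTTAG
Tubb5: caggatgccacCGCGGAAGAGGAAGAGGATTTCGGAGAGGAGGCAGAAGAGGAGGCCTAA
These ends lie at chr8:123421623-123421682 on the plus strand for Tubb3, at chr2:25222308-25222367 on the minus strand for Tubb4b and at chr17:35834982-35835041 on the minus strand for Tubb5. No stretch of 100 bases of Tubb3 or Tubb5 occurs in a transcript of another gene. For Tubb4b the share was 22.0%, mostly with the pseudogene Tubb4b-ps1. Over the whole coding sequences, 51.7%, 41.3% and 35.2% of the bases of Tubb3, Tubb4b and Tubb5 lie in shared 15-base stretches.

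Total counts ran from 7763077 to 18167577 per library. Levels are given as CPM, the read count relative to the TMM-scaled library size. Among replicate pairs, the mean squared Pearson residual of counts over genes was highest in the hybrid for hybrid 1 with hybrid 2 (408) and hybrid 1 with hybrid 3 (244.8), and in CAST for CAST 1 with CAST 3 (460.4) and CAST 1 with CAST 2 (387.8). Exon length set hybrid 2, hybrid 3 and CAST 1 apart. Over 14830 genes, the slope of relative log2 CPM on log2 exon length was −0.603 in hybrid 2, −0.246 in hybrid 3 and −0.495 in CAST 1 (log2 units each). In the remaining 6 libraries it ran from 0.066 to 0.307, so short transcripts were relatively abundant in the first 3. The 8 listed genes of spinal motor neurons summed to 448 to 1360 CPM in the hybrid, 566 to 3230 CPM in CAST and 359 to 1420 CPM in 129. Of its transcription factors, Isl1 stood between 13.1 and 62.7 CPM. Mnx1, a transcription factor of motor neurons, stood between 0.495 and 4.88 CPM, Lhx3, another, between 0 and 2.13 CPM, with 0 in hybrid 1, and Chat, the enzyme of acetylcholine synthesis, between 5.52 and 28.4 CPM. Summed CPM of 12 genes expressed by neurons in general ran from 4210 to 11400 in the hybrid, 5920 to 11500 in CAST and 4540 to 10600 in 129. That of 12 fibroblast and mesenchyme genes ran from 6540 to 47500, 9910 to 15600 and 9320 to 38300 in the same lines. In such bulk samples, fewer cells of a type and less RNA per cell cannot be told apart.

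Few members were called different among the lines, at shares below or near those of all tested genes, which are given below. In the hybrid, Tuba1b was at 0 counts, and Kif6, Kif24 and Kif4 were called higher than the mean of the parental lines. Tubb4b was called in a joint test of the lines. The calls of Kif24, Kif4 and Tubb4b each ended when any of several single libraries was left out. None of the stathmins, collapsin response mediators, doublecortins, structural MAPs or transport kinesins was called in any comparison by edgeR's quasi-likelihood test with Benjamini-Hochberg adjustment over all tested genes, at a threshold of 0.05.

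In hybrid against 129, edgeR called 2 of 57 members, Tuba1b lower and Kif6 higher, which is 3.51% of members where 7.02% of all tested genes were called, 5.41% higher and 1.6% lower. In hybrid against CAST it called the same 2 genes, 3.51% where the background was 6.0%, with 4.41% higher and 1.6% lower. These comparisons share the hybrid libraries. Against the midparent, which averages CAST and 129 in log2 units, it called 5 of 57, which is 8.77% where the background was 7.34% (5.88% higher, 1.46% lower): Tuba1b lower, and Kif6, Kif19a, Kif24 and Kif4 higher. Kif19a passed the filter on low counts only through the hybrid, where it is high, so nothing is read from its call. In CAST against 129 it called 0 of 57, where the background was 0.917% (0.391% higher, 0.526% lower), with 4 members with an unadjusted p below 0.05, 2 called by DESeq2 and 0 by limma-voom. A joint F test for any difference among the 3 lines called 3 of 57, Tuba1b, Kif6 and Tubb4b, where 8.03% of all genes were called. The members' shares thus lay below the background in hybrid against 129, hybrid against CAST and the joint test, and near it against the midparent. With an offset on exon length, edgeR called 4 members in hybrid against 129 (background 7.66%), 6 in hybrid against CAST (7.0%), 6 against the midparent (8.34%), 3 in CAST against 129 (1.93%) and 6 in the joint test (9.71%). With the offset, the members' share lay near the background in hybrid against 129, against the midparent and in the joint test. The share was above the background in hybrid against CAST and in CAST against 129, on few genes.

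These counts are small and some turned on single libraries. Without CAST 1, edgeR called 2 members in CAST against 129, 6 in hybrid against 129 and 6 in the joint test, and without CAST 2 it called 5 in the joint test. Without 129 2 or 129 3 it called 1 in hybrid against 129, and without hybrid 2 it called 1 in hybrid against CAST. The midparent count was 2 without 129 2, 129 3 or hybrid 2, and 3 without hybrid 1 or hybrid 3. Without both CAST 1 and hybrid 2, the counts were 3 in CAST against 129, 4 in hybrid against 129, 2 in hybrid against CAST and 4 against the midparent.

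All 3 hybrid libraries lay above all 6 parental libraries for 5 of 57 members, Kif6, Kif9, Kif19a, Kif24 and Kif4, where 7.21% of all tested genes did so. Kif19a is in this count but passed the filter only through the hybrid, so nothing is read from its place there. They lay below all 6 for 3 members, Tuba1b, Kif3a and Kif21a, where the background was 4.33%. Libraries did not overlap for 18 members in hybrid against 129 (background 37.5%), 7 of them higher (20.5%) and 11 lower (16.9%). In hybrid against CAST there were 12 (19.2%), 5 higher (10.7%) and 7 lower (8.57%), and in CAST against 129 there were 7 (28.6%), 2 higher (15.2%) and 5 lower (13.5%). The heatmap of relative levels shows these members beside the rest.

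**Figure D1:**
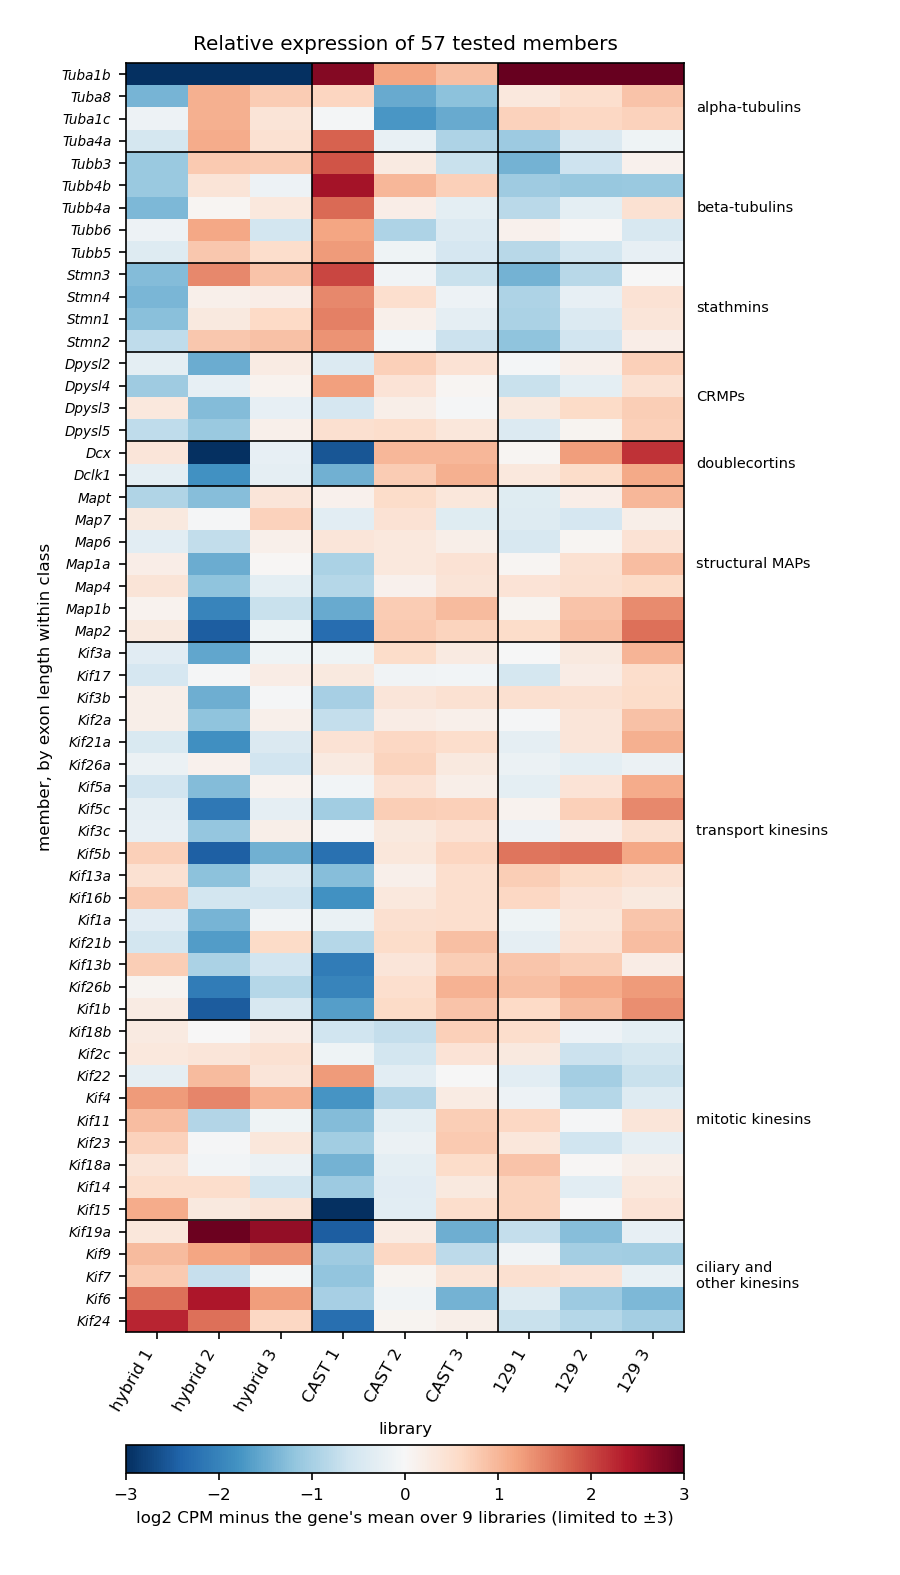
Relative level of each of the 57 tested members in each of the 9 libraries, as log2 CPM minus the member's mean over all libraries, with colours limited to 3 units either way. Rows are members grouped by class and columns are libraries of the hybrid, CAST and 129. Tuba1b is at the low limit in the hybrid, and hybrid 2 and CAST 1 share high Tubb3 and Stmn3 and low Map1b, Map2 and Dcx.

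Tuba1b, a widely expressed alpha-tubulin (chr15:98931425-98934565), had 0 counts in all 3 hybrid libraries, against 37.9, 12.6 and 10.4 CPM in CAST 1, CAST 2 and CAST 3 and 62.3, 72.1 and 88.0 CPM in 129 1, 129 2 and 129 3. The hybrid thus lay below both parental lines with no overlap, while it is a cross of the same 2 strains. With the floor set at 3 counts over the hybrid libraries, or 0.0843 CPM, against 737 counts in CAST and 3835 in 129, Tuba1b was at least 211-fold lower in the hybrid than in CAST and at least 879-fold lower than in 129 (edgeR adjusted p = 0.0014 and 0.00076). Both calls held in all 17 alternatives tried. Among all tested genes, 180 had 0 counts in every hybrid library, and 25 of these were above 5 CPM in each of the other 6 libraries. The same count was 2 for genes at 0 in CAST and 0 for genes at 0 in 129. On its own strand 22.7% of the exonic bases of Tuba1b overlap other annotated genes. How reads that match both Tuba1b and Tuba1c were counted is not given in the sources used here, so the gene of origin of these reads is uncertain, and its part in the result was not tested.

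In CAST, Tuba1b lay below 129 in every library, but the adjusted p was 0.198. It was 0.0319 without CAST 1, 0.0121 without both CAST 1 and hybrid 2, 0.0148 with an exon length offset and 0.0362 in DESeq2. Over all alternatives it ran from 0.0121 to 0.499.

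Tuba1c, the near-identical neighbour, was detected in every library of the hybrid. Its level was 29.3, 69.2 and 42.8 CPM in hybrid 1, hybrid 2 and hybrid 3, 31.5, 9.66 and 11.3 CPM in CAST and 52.7, 50.7 and 53.3 CPM in 129. CAST lay below 129 with no overlap, and the hybrid overlapped both. EdgeR called no difference (adjusted p = 0.208 in CAST against 129 and 0.182 in hybrid against CAST). Without CAST 1 these were 0.0438 and 0.0139. The pair summed to 29.3, 69.2 and 42.8 CPM in the hybrid, 69.4, 22.3 and 21.7 CPM in CAST and 115, 122.8 and 141.3 CPM in 129, so the sum too was highest in 129.

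Tuba4a, an alpha-tubulin that carries no tyrosine at its coding end, had the highest mean level per length of the measured alpha-tubulins in the hybrid, at 38.6 CPM per kilobase of exon, and in CAST, at 43.6. In 129 its mean was 19.4, below Tuba1b at 39.5 and Tuba1c at 22.8. Its level was 70.1, 219.1 and 139.8 CPM in the hybrid, 343.9, 87.5 and 53.1 CPM in CAST and 47.5, 75.6 and 92.4 CPM in 129. The lines overlapped, and the lowest adjusted p was 0.401. Of its exonic bases, 37.3% overlap Stk16 on the other strand, a kinase gene at 36.4 to 135.8 CPM over the libraries, and the strand setting of the counting is not given, so its level is uncertain. Among the alpha-tubulins, measured per kilobase, Tuba4a made up 59.3%, 65.1% and 65.4% in the hybrid, 72.6%, 67.9% and 57.2% in CAST, and 18.3%, 24.9% and 25.9% in 129. Tuba1a, the main alpha-tubulin of growing axons, is not among the genes analysed, so these shares describe the measured alpha-tubulins alone. Tuba8 stayed between 0.449 and 3.35 CPM.

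**Figure D2:**
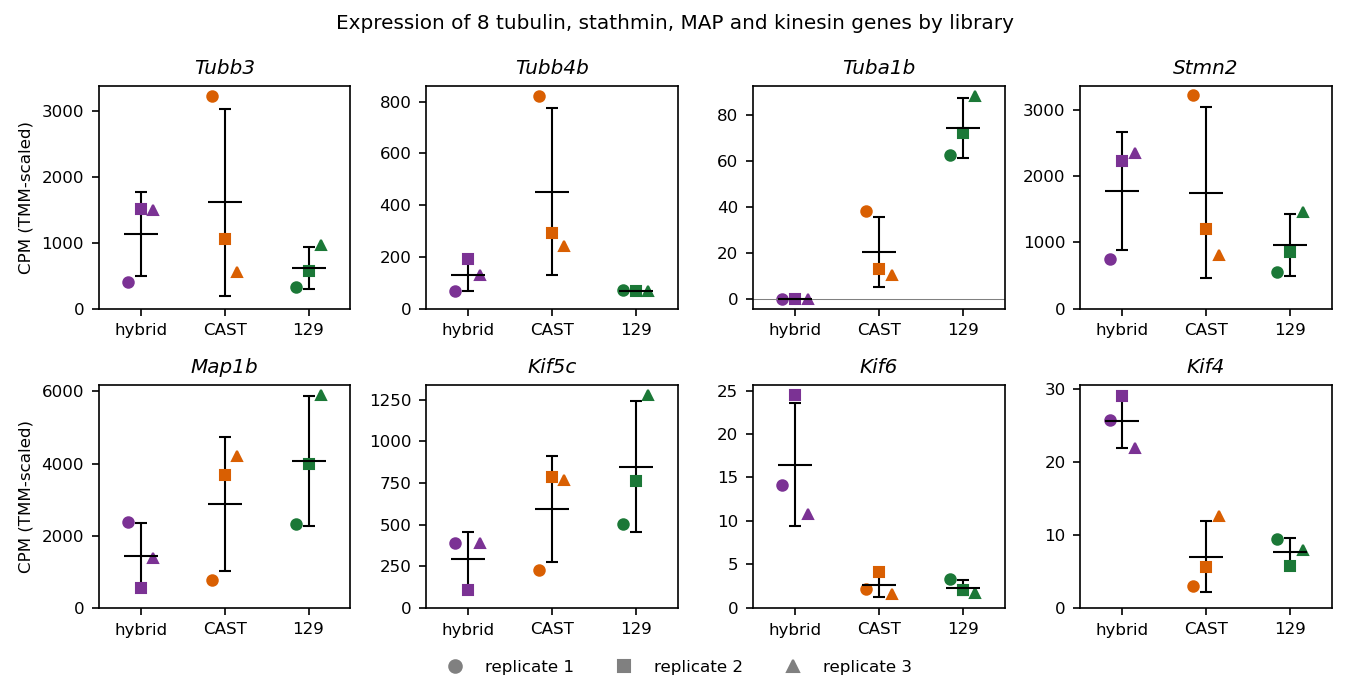
Levels in CPM of 8 members in each library of the hybrid, CAST and 129, with points for libraries (shape by replicate), horizontal lines for the mean of 3 and error bars for the SD, each panel on its own linear axis. Tuba1b is at 0 in the hybrid, Tubb4b is higher in every CAST library than in any 129 library, and Kif6 and Kif4 are higher in every hybrid library than in any parental one.

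Tubb3 and Tubb5 had the highest mean levels per length over all libraries, although in 129 Dpysl3, at 336.4 CPM per kilobase, was above Tubb3. Tubb3, the beta-tubulin most restricted to neurons, averaged 609.3 CPM per kilobase in the hybrid, 863.6 in CAST and 332.8 in 129. Tubb5, found in most cell types, averaged 705.2, 714.3 and 371.6 in the same lines. Levels moved widely within a line. Tubb3 had 403.0, 1515 and 1496 CPM in hybrid 1, hybrid 2 and hybrid 3, 3228, 1062 and 549.6 CPM in CAST 1, CAST 2 and CAST 3, and 330.1, 575.4 and 959.8 CPM in 129 1, 129 2 and 129 3. The lines overlapped, and the difference of CAST from 129 had an adjusted p of 0.431. Tubb5 had 1353, 3124 and 2561 CPM in the hybrid, 4253, 1621 and 1255 CPM in CAST and 992, 1216 and 1501 CPM in 129. CAST 1 was the highest library for both genes and hybrid 2 the second highest.

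Tubb4b, a beta-tubulin used in many tissues and in the axoneme of cilia, was the one beta-tubulin that edgeR called. It stood at 67.8, 191.7 and 131.6 CPM in the hybrid, 823.0, 291.8 and 240.7 CPM in CAST and 70.4, 67.1 and 67.2 CPM in 129. Every CAST library was above every library of the other lines, and the hybrid overlapped 129. The joint F test called it (edgeR adjusted p = 0.0298). That call ended without 129 1 (0.0883), 129 2 (0.104), 129 3 (0.0957) or hybrid 3 (0.0614), and without both CAST 1 and hybrid 2 the adjusted p was 0.0175. In CAST against 129 the log2 fold change was 2.73 ± 0.59 (SE), with an adjusted p of 0.0722, which was 0.0128 with the exon length offset, 0.0345 without both CAST 1 and hybrid 2 and 0.000194 in DESeq2. Over all alternatives it ran from 0.000194 to 0.303. In hybrid against CAST the log2 fold change was −1.79 ± 0.57 (SE, adjusted p = 0.121; 0.00564 with the exon length offset, the lowest over the alternatives, and 0.350 the highest).

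Of the beta-tubulin total per kilobase, Tubb4b held more in every CAST library than in any other library. It made up 4.24%, 4.33% and 3.49% in the hybrid, 10.1%, 10.4% and 12.5% in CAST and 5.18%, 3.71% and 2.72% in 129. Its share in CAST 1 was thus close to that in CAST 2 and CAST 3, although its level there was well above theirs. Tubb3 made up 36.9% ± 8.2 of the total in the hybrid, 39.5% ± 6.7 in CAST and 35.4% ± 8.1 in 129 (SD, n = 3 each). Tubb5 made up 46.7% ± 5.7, 36.6% ± 4.0 and 42.0% ± 3.9 in the same lines. Tubb4a, abundant in the brain, made up 5.26% ± 1.0 in the hybrid, 8.02% ± 0.23 in CAST and 9.33% ± 1.42 in 129, and its hybrid libraries (at most 6.41%) lay below all parental ones (at least 7.80%). Tubb6 ranged from 3.10% to 13.7%. Tubb2a and Tubb2b, both abundant in neurons, are not in these totals. The shares were not tested. By level, edgeR called Tubb4a in no comparison (lowest adjusted p 0.483).

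Stathmin levels did not separate the lines. The 4 genes summed to 1089, 3706 and 3665 CPM in the hybrid, 5947, 2097 and 1445 CPM in CAST and 938, 1434 and 2443 CPM in 129. EdgeR, DESeq2 and limma-voom called 0 of 4 in every comparison, with 0 with an unadjusted p below 0.05. Stmn2, a growth cone protein needed for axon maintenance in motor neurons, had 749.4, 2223 and 2353 CPM in the hybrid, 3219, 1206 and 814.8 CPM in CAST and 554.7, 859.9 and 1462 CPM in 129. Its libraries overlapped between all lines (lowest adjusted p 0.449). Stmn3, the shortest member with 1136 bases of exon, ran over the widest range of the class, with 132.0, 878.9 and 589.1 CPM in the hybrid, 1309, 300.3 and 205.9 CPM in CAST and 122.3, 183.4 and 322.4 CPM in 129. Stmn1, the founding stathmin, was also highest in CAST 1, at 1123 CPM. The shares of the 4 genes per kilobase were nearly constant in 129, where Stmn1, Stmn2, Stmn3 and Stmn4 made up 30.3% ± 0.5, 29.3% ± 0.4, 31.5% ± 0.4 and 8.89% ± 0.33. In the hybrid they made up 21.5% ± 4.0, 32.0% ± 5.3, 41.3% ± 10.0 and 5.14% ± 0.98.

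Collapsin response mediators were called in no comparison, and their most abundant members were lowest in hybrid 2. Dpysl3 (CRMP4), the most abundant of them per length, had 1895, 615.4 and 1278 CPM in hybrid 1, hybrid 2 and hybrid 3, 1078, 1717 and 1492 CPM in CAST and 1868, 2260 and 2541 CPM in 129. CAST lay below 129 with no overlap, but the adjusted p was 0.561. Dpysl2 (CRMP2), which binds tubulin dimers and promotes axon formation, had 308.5, 134.5 and 449.2 CPM in the hybrid, 286.3, 623.7 and 515.2 CPM in CAST and 365.6, 425.9 and 627.7 CPM in 129, with overlap between all lines. Dpysl5 (CRMP5) had 190.0, 148.8 and 360.8 CPM in the hybrid, below CAST at 412.7 to 464.7 CPM in every library. Dpysl4 (CRMP3), the least abundant per length, stood at 29.1 to 144.1 CPM. EdgeR, DESeq2 and limma-voom called 0 of 4 in every comparison, with 0 with an unadjusted p below 0.05. The median log2 fold change over the 4 was −0.67 in hybrid against 129, −0.80 in hybrid against CAST and 0.13 in CAST against 129, which was −0.07 without 129 1 and −0.02 without CAST 2.

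Doublecortins were called in no comparison and were lowest in hybrid 2 and CAST 1. Dcx, which marks young migrating neurons, had 195.1, 18.7 and 127.5 CPM in the hybrid, 25.4, 302.1 and 305.5 CPM in CAST and 157.9, 363.9 and 685.9 CPM in 129. The low values of hybrid 2 and CAST 1 were each several times below the others of their line, and the lines overlapped. Dclk1, a kinase with doublecortin domains, had 226.2, 78.2 and 226.7 CPM in the hybrid, 100.4, 467.6 and 574.2 CPM in CAST and 345.3, 400.9 and 604.9 CPM in 129. Every hybrid library of Dclk1 lay below every 129 library (adjusted p = 0.265). EdgeR, DESeq2 and limma-voom called 0 of 2 in every comparison, with 0 with an unadjusted p below 0.05. Without both CAST 1 and hybrid 2 the median log2 fold change of the pair was −1.13 in hybrid against 129, against −1.58 with all libraries.

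Structural MAPs were called in no comparison. Their 7 members summed to 4917, 1558 and 4104 CPM in the hybrid, 2651, 7234 and 7654 CPM in CAST and 5063, 7534 and 11060 CPM in 129. Map1b, the MAP of growing axons and the most abundant of the class per length, had 2369, 553.3 and 1372 CPM in the hybrid, 768.2, 3695 and 4201 CPM in CAST and 2326, 3991 and 5903 CPM in 129. Mapt, the axonal protein tau, had 404.3, 311.3 and 963.8 CPM in the hybrid, 831.7, 1110 and 948.0 CPM in CAST and 582.1, 861.8 and 1495 CPM in 129. Neither gene separated the lines (adjusted p from 0.289 to 0.745 for Map1b and from 0.400 to 0.991 for Mapt). Map2, which marks dendrites, had 508.6, 74.2 and 381.1 CPM in the hybrid, all below 610.8, 792.3 and 1306 CPM in 129, with 85.4, 715.5 and 659.2 CPM in CAST (adjusted p = 0.324 in hybrid against 129). Map4, the MAP of most non-neuronal cells, also lay below 129 in all libraries of the hybrid, at 644.4, 214.0 and 402.1 CPM, and of CAST, at 273.5, 538.3 and 648.7 CPM, against 658.4, 689.0 and 738.7 CPM in 129. Map1a, Map6 and Map7 overlapped between 129 and each of the other lines, while Map6 was lower in every hybrid library (155.1 to 286.8 CPM) than in any CAST library (295.9 to 335.6 CPM). EdgeR, DESeq2 and limma-voom called 0 of 7 in every comparison, with 0 with an unadjusted p below 0.05.

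**Figure D3:**
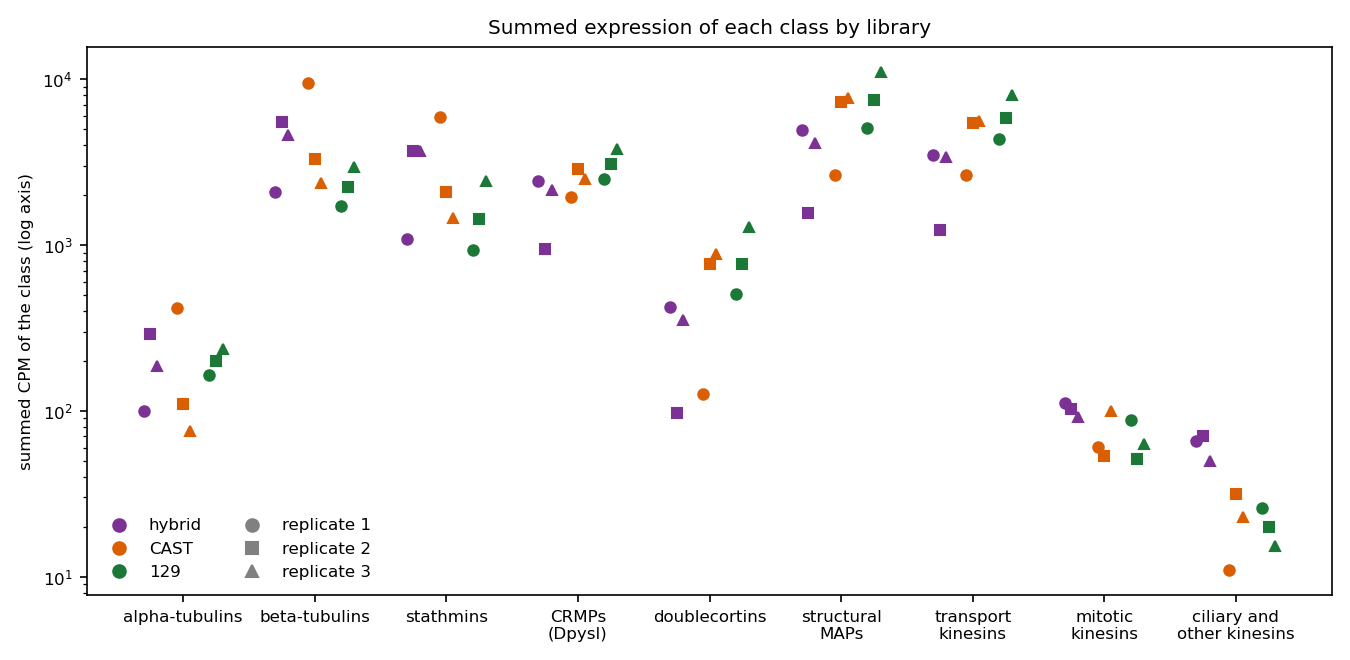
Summed CPM of each class of members in each library of the hybrid, CAST and 129, on a log axis, with a point for each library (colour by line, shape by replicate). Beta-tubulins and stathmins peak in CAST 1, where MAPs and transport kinesins are at their lowest for CAST, and the kinesins of cilia and other kinesins are higher in every hybrid library than in any parental one.

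Transport kinesins showed no called difference either. The class was set by protein family and textbook role, and includes Kif2a, Kif26a and Kif26b, which are not conventional cargo motors. The 17 genes summed to 3478, 1233 and 3413 CPM in the hybrid, 2653, 5404 and 5624 CPM in CAST and 4385, 5813 and 8037 CPM in 129, so the hybrid sums lay below those of 129 in every library. EdgeR called 0 of 17 in every comparison. At an unadjusted p under 0.05 there were 3 in hybrid against 129, 1 in hybrid against CAST, 2 against the midparent and 0 in CAST against 129. DESeq2 called 1 against the midparent and 0 elsewhere, and limma-voom 0. In hybrid against 129, 1 of the 17 had a positive log2 fold change, the median was −0.83, and the median of all tested genes was 0.02. The median of the 17 was −0.44 with the exon length offset and −0.50 without both CAST 1 and hybrid 2. In CAST against 129 the medians were −0.43, −0.20 and −0.12 in the same order.

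Kif1a, which carries synaptic vesicle precursors, was the most abundant kinesin per length. It had 762.5, 367.6 and 898.3 CPM in the hybrid, 849.4, 1348 and 1375 CPM in CAST and 892.1, 1237 and 1737 CPM in 129, with hybrid 3 just above 129 1. Its relative Kif1b, the longest member with 17608 bases of exon, had 664.9, 98.9 and 402.3 CPM in the hybrid, 178.5, 838.2 and 1020 CPM in CAST and 848.3, 1072 and 1466 CPM in 129. All hybrid libraries of Kif1b lay below all 129 libraries (adjusted p = 0.279). Of the total of Kif1a and Kif1b per kilobase, Kif1b held 31.6%, 12.5% and 19.2% in the hybrid, 10.0%, 24.8% and 28.2% in CAST and 33.5%, 31.5% and 30.9% in 129.

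The conventional kinesin heavy chains Kif5a, Kif5b and Kif5c, which haul mitochondria, neurofilaments and vesicles, were called in no comparison. The neuronal Kif5a had 414.1, 248.8 and 659.4 CPM in the hybrid, 582.5, 834.2 and 693.9 CPM in CAST and 499.6, 812.4 and 1325 CPM in 129. Kif5c, also neuronal, had 389.0, 106.2 and 387.9 CPM in the hybrid, 226.3, 784.6 and 770.8 CPM in CAST and 501.9, 764.8 and 1279 CPM in 129. The widely expressed Kif5b had 264.4, 29.1 and 58.8 CPM in the hybrid, 33.8, 201.9 and 250.3 CPM in CAST and 490.1, 499.6 and 357.0 CPM in 129. For Kif5b both the hybrid and CAST lay below 129 with no overlap, yet the adjusted p was 0.237 and 0.442. Kif5b held 22.6%, 6.73% and 4.72% of the Kif5 total per kilobase in the hybrid, 3.55%, 9.94% and 13.1% in CAST and 30.2%, 21.9% and 10.8% in 129, with overlap between all lines. Summed fibroblast and mesenchyme genes were also lower in hybrid 3 (6540 CPM) and 129 3 (9320 CPM) than in the other libraries of those lines, and their part in the Kif5b share was not tested.

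Kif3a, a subunit of heterotrimeric kinesin-2, and Kif21a, a kinesin that restrains microtubule growth, were lower in all hybrid libraries than in all 6 parental ones. Kif3a had 105.6, 45.4 and 122.3 CPM in the hybrid, 122.4, 196.0 and 161.1 CPM in CAST and 133.3, 163.7 and 271.4 CPM in 129, and the highest hybrid library nearly met the lowest of CAST. Kif21a had 129.0, 49.6 and 130.7 CPM in the hybrid, 239.9, 271.4 and 256.0 CPM in CAST and 146.4, 230.1 and 372.4 CPM in 129. Against the midparent the adjusted p of Kif3a was 0.270. That of Kif21a was 0.139 in edgeR, 0.0263 in DESeq2 and 0.0856 in limma-voom. The other members of the class, Kif2a, Kif3b, Kif3c, Kif13a, Kif13b, Kif16b, Kif17, Kif21b, Kif26a and Kif26b, had adjusted p-values of at least 0.197 in every comparison. Of the exonic bases of Kif3c, 40.7% overlap genes on the other strand, so its level is uncertain.

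Across members, levels relative to each member's mean over the libraries went with exon length by rank. Over the 57 tested members, Spearman's rho between exon length and relative log2 level was −0.71 in CAST 1, −0.55 in hybrid 2 and −0.46 in hybrid 3. The remaining 6 libraries had rho from 0.28 to 0.62. Pearson's r with log2 exon length was −0.74 in CAST 1, −0.43 in hybrid 2 and only −0.10 in hybrid 3. Members of a library share its depth and preparation, so these values describe libraries. The ratio of summed beta-tubulin and stathmin CPM to summed structural MAP CPM was 0.646, 5.91 and 2.01 in the hybrid, 5.80, 0.749 and 0.498 in CAST and 0.527, 0.487 and 0.488 in 129. The ratio was thus alike in all 129 libraries and in hybrid 1, CAST 2 and CAST 3, and high in CAST 1, hybrid 2 and hybrid 3.

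The same relation appeared in the comparisons. Between log2 fold change and exon length over the 57 members, rho was −0.52 in hybrid against 129, −0.12 in hybrid against CAST and −0.50 in CAST against 129, and −0.45, −0.18 and −0.38 over 14830 genes. With the exon length offset the members' rho was −0.01, 0.07 and −0.15. Without the offset, Pearson's r over the members was −0.07, 0.13 and −0.45 in the same order, with Tuba1b included. The offset was fitted to the length trend of these same libraries, so it removes that trend by design. The class medians moved with the offset. For the beta-tubulins the median log2 fold change in hybrid against 129 was 0.87, and 0.04 with the offset. For the structural MAPs it was −0.77, and −0.05 with the offset. In CAST against 129 the beta-tubulin median was 0.94, 0.63 with the offset and 0.19 without both CAST 1 and hybrid 2, and the MAP median was −0.46, 0.27 and −0.06.

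**Figure D4:**
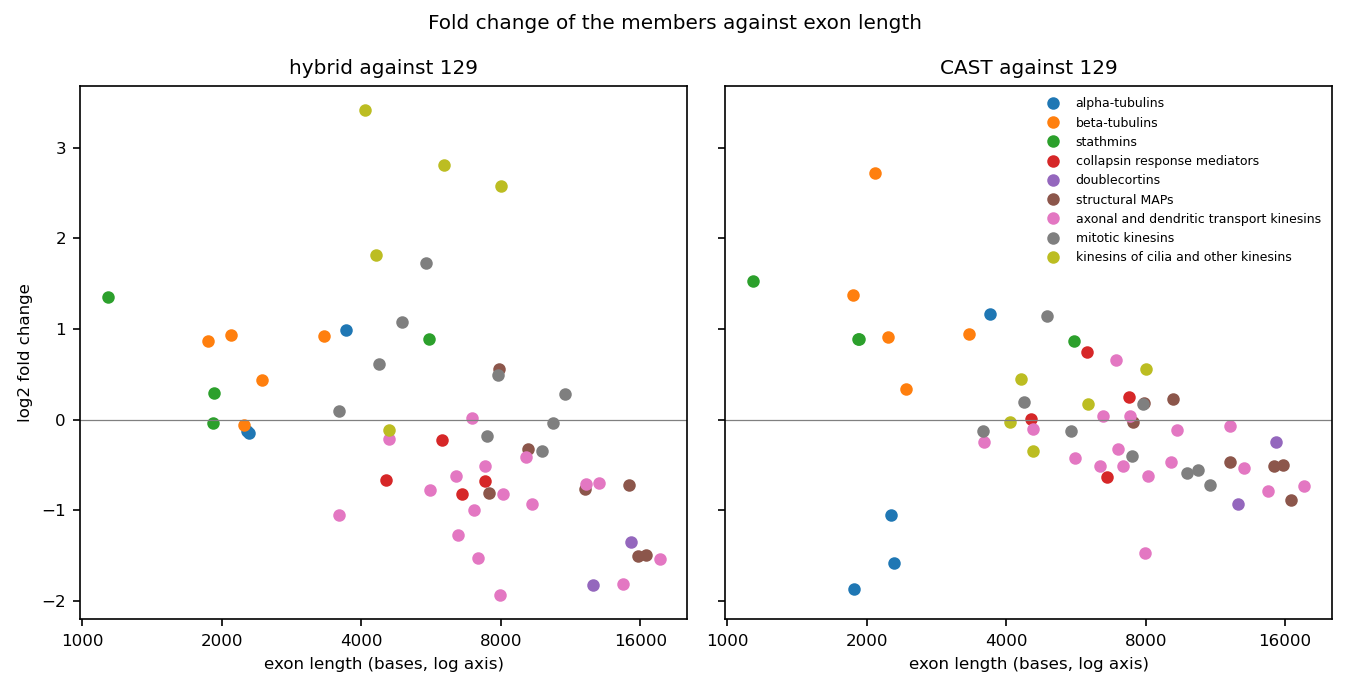
Log2 fold change of the tested members (y axis) against exon length in bases (x axis, log scale), for hybrid against 129 on the left and CAST against 129 on the right, coloured by class. Tuba1b is left out of the left panel because it had 0 counts in the hybrid. Tubulins and stathmins, short but for Stmn2 (5602 bases), lie mostly above 0, and long MAPs and transport kinesins mostly below. In the left panel, all tested kinesins of cilia and other kinesins but Kif7 lie well above 0.

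Mitotic kinesins were low, with means over all libraries of 0.361 to 3.20 CPM per kilobase. Of the 9, 1 was called, against the midparent, where 5.88% of all tested genes were called higher. The sum of the 9 was 111.4, 102.0 and 92.0 CPM in the hybrid, 60.6, 53.0 and 99.5 CPM in CAST and 88.1, 51.0 and 63.4 CPM in 129, with overlap. Kif4, a chromokinesin that binds chromosome arms and organises the central spindle, had 25.8, 29.1 and 21.9 CPM in the hybrid, 2.99, 5.62 and 12.5 CPM in CAST and 9.45, 5.73 and 7.93 CPM in 129. All hybrid libraries lay above all parental ones. Against the midparent the log2 fold change was 1.79 ± 0.41 (SE, edgeR adjusted p = 0.0264). The call ended without 129 2, 129 3, CAST 2, hybrid 1, hybrid 2 or hybrid 3, with adjusted p-values from 0.0592 to 0.0986. In hybrid against 129 the log2 fold change was 1.73 ± 0.51 (adjusted p = 0.0815; 0.0233 without CAST 1 and 0.0332 without CAST 3) and in hybrid against CAST 1.85 ± 0.51 (0.0713; 0.0188 without CAST 3). On the other strand, 15.1% of the exonic bases of Kif4 overlap Pdzd11, which stood at 52.6, 117.5 and 63.7 CPM in the hybrid, 105.2, 39.1 and 43.8 CPM in CAST and 46.9, 35.1 and 31.7 CPM in 129. The part of these reads in the Kif4 values was not tested.

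No other spindle motor was called by edgeR. Kif11, which slides spindle poles apart, had 20.4, 5.73 and 9.71 CPM in the hybrid, 4.23, 8.65 and 17.9 CPM in CAST and 16.5, 10.49 and 13.7 CPM in 129, and all lines overlapped (adjusted p of at least 0.731). Kif23, the motor of the cytokinetic midzone, and Kif22, another chromokinesin, also did not pass, although Kif22, at 11.5, 26.8 and 17.8 CPM in the hybrid against 11.1, 6.77 and 8.62 CPM in 129, did not overlap between these lines. Kif2c, a microtubule depolymerase of the centromere, had 9.84 to 10.9 CPM in the hybrid, above 129 at 5.0 to 9.67 CPM. Over the 9 genes the median log2 fold change was 0.28 in hybrid against 129 and 0.73 with the exon length offset. Summed CPM of 17 genes of dividing cells ran from 389 to 427 in the hybrid, 256 to 501 in CAST and 280 to 439 in 129, and none of them was at 0 in any line. Against the midparent, 5.88% of all tested genes were called higher. Of the 17, edgeR called Ccnb2, a cyclin of mitosis, higher against the midparent (adjusted p = 0.0461, and 0.284 with the exon length offset). That call ended without 129 2, 129 3, CAST 2, CAST 3, hybrid 2 or hybrid 3 (0.0673 to 0.209). It called none in the pairwise comparisons, with 1 or 2 in each with an unadjusted p below 0.05, at most 1 by DESeq2 and at most 1 by limma-voom. Mki67, which marks cycling cells, had 60.9, 8.52 and 26.6 CPM in the hybrid, 3.30, 28.5 and 70.0 CPM in CAST and 56.2, 32.2 and 41.8 CPM in 129, with full overlap.

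Beside Kif4, the members called higher in the hybrid were kinesins of cilia and other kinesins. The 8 genes summed to 65.5, 70.6 and 50.0 CPM in the hybrid, 10.9, 31.4 and 22.8 CPM in CAST and 25.7, 19.9 and 15.3 CPM in 129. Of 5 tested, edgeR called 1 higher in hybrid against 129, 1 in hybrid against CAST and 3 against the midparent, and 0 in CAST against 129 (0 with an unadjusted p below 0.05, 0 by DESeq2 and limma-voom). Of all tested genes, 5.41%, 4.41%, 5.88% and 0.391% were called higher in these comparisons, in the same order. Kif19a, 1 of the 3 called against the midparent, passed the filter only through the hybrid, and 3 of the 8 did not pass it. The counts therefore do not describe the whole class. Nor does the class hold every kinesin that acts in cilia, since Kif3a, Kif3b and Kif17 were placed with the transport kinesins. In hybrid against 129 the log2 fold changes of Kif3a, Kif3b and Kif17 were −1.06, −0.78 and −0.21, and none was called.

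Kif6, which in the mouse is needed for the cilia of ependymal cells that line the brain ventricles, had 14.2, 24.5 and 10.8 CPM in the hybrid, 2.17, 4.10 and 1.58 CPM in CAST and 3.34, 2.01 and 1.67 CPM in 129. Every hybrid library lay well above the highest parental one. Its log2 fold change was 2.81 ± 0.53 in hybrid against 129 and 2.64 ± 0.53 in hybrid against CAST (SE, edgeR adjusted p = 0.0117 and 0.0165). Against the midparent it was 2.72 ± 0.42 (adjusted p = 0.00277), a call that held in all 16 alternatives with an adjusted p of at most 0.0193. The call against 129 ended without 129 2 (0.0749) or 129 3 (0.0659). The call against CAST ended without CAST 3 (0.0671), hybrid 2 (0.0522) or both CAST 1 and hybrid 2 (0.0787).

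Kif24, a centriolar kinesin that restrains the growth of cilia, had 19.8, 12.7 and 6.22 CPM in the hybrid, 0.723, 4.21 and 4.52 CPM in CAST and 2.45, 2.13 and 1.90 CPM in 129. Kif19a, a depolymerase that sets the length of motile cilia in the mouse, had 0.849, 5.87 and 4.68 CPM in the hybrid, 0, 0.786 and 0.143 CPM in CAST and 0.334, 0.183 and 0.517 CPM in 129. In both genes the hybrid lay above all parental libraries, for Kif19a by little in hybrid 1. Against the midparent, Kif24 had a log2 fold change of 2.30 ± 0.53 and Kif19a of 3.43 ± 0.83 (SE, edgeR adjusted p = 0.0284 and 0.0345). Since Kif19a was tested only because it is high in the hybrid, its values are given as a description. The Kif24 call ended without 129 1, 129 2, 129 3, hybrid 1 or hybrid 2 (0.0595 to 0.115). The Kif19a call ended without 129 1, 129 2, 129 3, CAST 3, hybrid 2 or hybrid 3 (0.0706 to 0.128), and without both CAST 1 and hybrid 2, where the log2 fold change was 2.78 (0.0781). In hybrid against 129, Kif24 had an adjusted p of 0.0533, which was 0.011 without CAST 1, and Kif19a 0.0984, which was 0.0441 without CAST 1. Over all alternatives these ran from 0.00146 to 0.200 for Kif24 and from 0.00641 to 0.323 for Kif19a.

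Kif9, found in the axoneme of motile cilia and sperm tails, had 15.4, 18.2 and 19.6 CPM in the hybrid, 3.72, 12.2 and 4.52 CPM in CAST and 7.39, 3.84 and 3.79 CPM in 129. The hybrid lay above all parental libraries, and CAST 2 was the highest of these. The log2 fold change against the midparent was 1.60 ± 0.42 (SE, edgeR adjusted p = 0.0535), with 0.00541 in DESeq2, 0.0339 in limma-voom and 0.0109 without CAST 2, and 0.00541 to 0.155 over all alternatives. Kif7, which acts at the tip of the primary cilium in Hedgehog signalling, had 15, 5.31 and 8.32 CPM in the hybrid, 3.72, 9.21 and 11.4 CPM in CAST and 12.1, 11.6 and 7.41 CPM in 129, with overlap in every comparison. The kinesin plot sets these genes side by side.

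Genes of motile cilia outside the kinesins were read beside these motors. Of 11 tested, edgeR called Rsph1 and Drc1 higher in hybrid against 129 and Drc1, Hydin and Tekt1 higher against the midparent. It called 0 in hybrid against CAST (5 with an unadjusted p below 0.05, 4 by DESeq2, 2 by limma-voom) and Rsph1 higher in CAST against 129. Of all tested genes, 5.41% were called higher in hybrid against 129 and 5.88% against the midparent. The shares were 4.41% in hybrid against CAST and 0.391% in CAST against 129. Rsph1, a protein of the radial spokes of the axoneme, had 34.8, 67.2 and 70.9 CPM in the hybrid, 112.6, 69.0 and 40.7 CPM in CAST and 8.01, 4.82 and 6.84 CPM in 129, so both lines lay above 129 with no overlap. Its call in hybrid against 129 (edgeR adjusted p = 0.00471) held without each single library, and that in CAST against 129 (0.0146) ended without 129 1, 129 2, 129 3 or CAST 2 (0.0684 to 0.128). The Drc1 call against 129 (0.0302) ended without 129 1, 129 2, 129 3, hybrid 2 or hybrid 3 (0.0656 to 0.149). Against the midparent, the calls of Drc1 and Tekt1 ended without 129 2, 129 3, hybrid 2 or hybrid 3, and that of Hydin without 129 3 or hybrid 2. Tekt1, like Kif19a, passed the filter only through the hybrid. Summed CPM of the list was 301.6, 292.0 and 437.3 in the hybrid, 145.8, 332.1 and 156.5 in CAST and 158.2, 88.8 and 73.9 in 129, and none was at 0 in any line. Foxj1, the master regulator of motile cilia, had 97.7, 62.2 and 148.4 CPM in the hybrid, 11.2, 102.1 and 57.1 CPM in CAST and 67.3, 17.6 and 15 CPM in 129, with overlap. CAST 2 and 129 1, the parental libraries with the highest Kif9 and Kif6 in their lines, also had the highest Foxj1. Within the hybrid, Foxj1 and Kif9 were highest in hybrid 3, while Kif6 was highest in hybrid 2 (24.5 CPM), where Foxj1 was lowest. Kif24 was highest in hybrid 1, CAST 3 and 129 1 of their lines. The part of ciliated cells in the kinesin values was not tested.

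Single markers of other cell types also differed in the hybrid, while their lists held genes that went the other way. Gfap, the intermediate filament of astrocytes, had 76.6, 305.3 and 162.4 CPM in the hybrid, 2.17, 23.1 and 14.4 CPM in CAST and 27.0, 3.17 and 3.10 CPM in 129. All hybrid libraries lay above all parental ones. Against the midparent its log2 fold change was 3.90 ± 0.86 (SE, edgeR adjusted p = 0.0211), a call that ended without 129 3, CAST 3 or hybrid 2 (0.0517 to 0.0974). Summed CPM of the 5 astrocyte genes nevertheless ran from 418 to 463 in the hybrid, 123 to 845 in CAST and 136 to 420 in 129. Of these 5, 2 had a positive log2 fold change against the midparent (median −0.52) and 1 in hybrid against CAST (median −0.86). Mog, a protein of the myelin surface, had 13.1, 5.59 and 22.5 CPM in the hybrid, 0 in all CAST libraries and 0.556, 0 and 0 CPM in 129. Mog passed the filter only through the hybrid, so nothing is read from its difference. The 7 oligodendrocyte genes summed to 101 to 134 CPM in the hybrid, 40.9 to 52.7 CPM in CAST, where Mog and Mag were at 0, and 78.4 to 159 CPM in 129. Of the 6 tested, 4 had a positive log2 fold change against the midparent (median 0.665) and 2 in hybrid against 129 (median −1.21). Myh3, an embryonic myosin heavy chain of muscle, was lower in every hybrid library, at 1.70, 1.68 and 1.19 CPM, than in CAST at 4.38 to 6.88 CPM and 129 at 6.10 to 18.4 CPM. Against the midparent its log2 fold change was −2.38 ± 0.48 (SE, adjusted p = 0.0132; 0.0543 without hybrid 2 and 0.0664 without hybrid 3). The 6 skeletal muscle genes summed to 10.6 to 230 CPM in the hybrid, 13.6 to 23.2 CPM in CAST and 36.3 to 223 CPM in 129. Of the 4 tested, 2 had a positive log2 fold change against the midparent (median −0.14) and 3 in hybrid against CAST (median 1.41). The part of these cell types in the kinesin values was not tested.

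**Figure D5:**
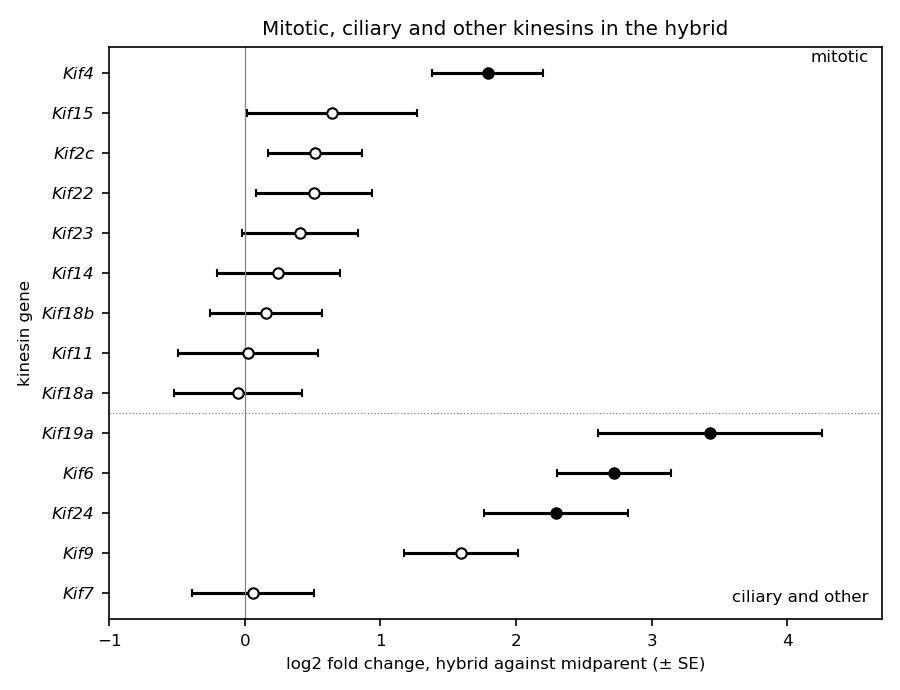
Log2 fold change in hybrid against the midparent (x axis, with SE as bars) of the 9 tested mitotic kinesins, above, and the 5 tested kinesins of cilia and other kinesins, below. Filled points passed the threshold in edgeR (Kif4, Kif19a, Kif6 and Kif24) and open points did not, with Kif9 at 1.60 and Kif7 and Kif11 near 0. Kif19a passed the filter on low counts only through the hybrid.

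The partners of the members were read from lists of other microtubule genes. As background for these lists, 5.41% of all tested genes were called higher in hybrid against 129. Of 12 kinesin light chains, adaptors and other kinesin motors, edgeR called Klc3, a kinesin light chain, higher in hybrid against 129 (4.03, 12.3 and 9.43 CPM against 2.17, 2.01 and 0.977 CPM; log2 fold change 2.31 ± 0.56, SE, adjusted p = 0.0378). It called none in the other pairwise comparisons, where 1 in each had an unadjusted p below 0.05, DESeq2 called 1 in hybrid against CAST and limma-voom 0. That call ended without 129 1, 129 2, 129 3, CAST 2, hybrid 2 or hybrid 3 (0.057 to 0.148). Of 24 genes of tubulin folding and modification it called 2 higher in hybrid against 129, Agbl4 and Agbl5, carboxypeptidases that trim glutamates from tubulin tails. Agbl5 had 75.99, 254.7 and 110.7 CPM in the hybrid, 41.3, 50.0 and 27.2 CPM in CAST and 17.9, 19.4 and 27.0 CPM in 129, with no overlap between the hybrid and either parental line (log2 fold change against 129 of 2.78 ± 0.51, SE, adjusted p = 0.01; 0.056 without 129 1 and 0.0649 without 129 2). Agbl4 had 7.71, 23.6 and 9.08 CPM in the hybrid against 1.001, 2.20 and 3.05 CPM in 129 (2.68 ± 0.61, adjusted p = 0.0284). Its call ended without 129 1, 129 2, 129 3 or hybrid 2 (0.0618 to 0.123).

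Of 19 genes of cytoplasmic dynein and dynactin, which move cargo back to the cell body, edgeR called 1, the light chain Dynlt3, in hybrid against CAST. In that comparison 4.41% of all tested genes were called higher. Dynlt3 had 212.6, 105.3 and 156.1 CPM in the hybrid and 50.1, 47.1 and 56.5 CPM in CAST, with no overlap, and 180.6, 176.3 and 141.1 CPM in 129 (log2 fold change in hybrid against CAST of 1.63 ± 0.36, SE, adjusted p = 0.0242). The call ended without 129 1, 129 2, CAST 1, CAST 2, CAST 3, hybrid 1 or hybrid 3 (0.0519 to 0.117). Of 17 genes of microtubule nucleation and ends and 6 severing enzymes it called 0 in every comparison. In hybrid against 129, these lists held 3 and 4 members with an unadjusted p below 0.05, DESeq2 called 0 and 1 and limma-voom 0 of both. In hybrid against CAST and in CAST against 129 the nucleation list held 2 and 3 members with an unadjusted p below 0.05, with 1 called by DESeq2 in each, and the severing list held 0. The medians of the severing enzymes and of the nucleation list in hybrid against 129 were −0.79 and −0.33.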

How the data were processed

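Polyadenylated RNA was sequenced, and STAR and mm10 are named as aligner and build per the submitters' processing notes. No source used here gives STAR's version or how reads were counted (tool, annotation, strand, reads that match several genes). The deposited file holds raw counts per Ensembl gene, whole numbers that the authors did not normalise, for 9 libraries. A further 2 CAST samples, numbered 7 and 8, were not analysed here. Symbols, exon lengths and overlaps came from GENCODE for GRCm38 by Ensembl identifier, which matched 27031 of 27071 genes.

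Genes were filtered with filterByExpr (minimum count 10, minimum total 15, minimum proportion 0.7), TMM-scaled and tested by edgeR 4.0.16 (R 4.3.3) with its quasi-likelihood F test and robust dispersions, all 3 lines in 1 fit without covariates. Tests were two-sided, with Benjamini-Hochberg adjustment over 14839 genes and a threshold of 0.05. DESeq2 1.42.0, limma-voom (limma 3.58.1), other scaling, no filter, a lowess offset on exon length, a replicate block, left-out libraries and fits of the compared groups alone were alternatives. The fit was tested on simulated data. Floors cover counting error only. Relative log2 levels used a prior count of 2.

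Members, classes, marker lists and tests were chosen with earlier results of these data known. To be named in full were the 3 members of each class with the highest mean CPM, called members whose mean was 1 CPM or more, up to 3 a class, comparison and direction, and a list of well-known neuronal and mitotic members. Of these, Tubb4a, Stmn1, Dpysl5, Map1a, Kif22 and Kif23 are given without all of their levels. Tuba8, Tubb6, Stmn4, Dpysl4, Map4, Map6, Map7, Kif2c, Kif3a, Kif3c, Kif5b and Kif21a were outside this rule and were chosen after their values were seen. The coding ends of the alpha-tubulins are not reported here.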

Additional observations from a re-analysis of the deposited data

How the results depend on the processing

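The number of members called was compared with the reported one under each alternative. In CAST against 129, where edgeR called 0, DESeq2 called 2, the exon length offset gave 3, the fit without both CAST 1 and hybrid 2 gave 3, and leaving out single libraries gave 0 to 2. In hybrid against 129, with 2 reported, DESeq2 called 6, the offset gave 4, the fit without both libraries 4, the fit of only the compared groups 5, and single libraries left out 1 to 6. In hybrid against CAST, with 2 reported, DESeq2 called 6, the offset gave 6 and single libraries left out gave 1 to 3. Against the midparent, with 5 reported, single libraries left out gave 2 to 6. In the joint test, with 3 reported, DESeq2 called 7, the offset gave 6, the fit without both libraries 5 and single libraries left out 2 to 6. Other size factors, limma-voom and no filter stayed within 1.5 times of the reported counts. The cause of these shifts was not tested.

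Same-numbered libraries did not deviate together: the correlation of their deviations from the group means was above 0.1 in 2 of 9 pairs, with a range of −0.718 to 0.494. With the replicate block, edgeR called 0 members in CAST against 129, 2 in hybrid against 129, 2 in hybrid against CAST, 2 against the midparent and 2 in the joint test. The calls lost were Kif4 (0.0675), Kif24 (0.118) and Kif19a (0.069) against the midparent and Tubb4b (0.145) in the joint test.

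Class medians of log2 fold change were unstable. Of 480 under alternatives, 20 had the other sign, in 10 of 30 medians: without CAST 1 the median in hybrid against CAST was 0.48 for the beta-tubulins and 0.46 for the stathmins, against −0.50 and −0.39 reported, and with the offset that of the stathmins in hybrid against 129 was −0.23, against 0.59. Shifts larger than the SD between replicates, combined over both lines, were 4, all in hybrid against 129: the offset gave 0.04 for the beta-tubulins, 0.73 for the mitotic kinesins and 3.05 for the kinesins of cilia and other kinesins, and leaving out hybrid 1 gave 2.06 for the last. Of 105 pairs of a member and a comparison called under no setting, 36 changed sign under some setting. The lowest members, such as Kif19a, rest on few counts per library.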
